A study of Mus musculus with 14 samples.

Results

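Hom-Ctrl cells, hematopoietic progenitor cells (HPCs) of mice homozygous for a mutant Polg allele (Polgmut/mut), were compared with Het-Ctrl cells, the same cells of heterozygous mice (Polgwt/mut). The array titles chose the samples: 2 Hom-Ctrl and 3 Het-Ctrl arrays, 5 of the 14 in the series. All 5 carried the Ctrl vector, MSCV-IRES-YFP, a mouse retroviral vector that makes a yellow fluorescent protein and no N-Myc. The cells were the lineage-negative fraction of bone marrow, cultured in complete bone marrow medium before and after infection, so both groups had been taken out of the animal, cultured and infected. Each Het-Ctrl sample also carries a mutant Polg allele, and no array of the comparison comes from cells with normal Polg alone. Further arrays are used for context: 2 Hom-NMyc and 2 Het-NMyc arrays, from Polgmut/mut and Polgwt/mut cells given MSCV-NMyc-IRES-YFP, and 3 WT-Ctrl arrays, from wild type Polgwt/wt cells with the Ctrl vector. The labels call the arrays biological replicates. The sources used here do not give the change in the mutant allele, the age and sex of the mice, any pooling of animals or any sorting for infected cells.

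Polg encodes the enzyme part of DNA polymerase gamma, which replicates and repairs mitochondrial DNA (mtDNA). In mice whose Polg lacks proofreading, known as mutator mice, mtDNA mutations build up with each round of copying, and blood formation is one of the processes known to be disturbed. The transcription factor p53 is held low by Mdm2 and, when cells are under stress, switches on genes of cell cycle arrest, DNA repair and cell death. Maturing neutrophils make their granules in order: primary granules at the promyelocyte stage, then secondary and tertiary granules, whose genes depend on C/EBP epsilon.

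The deposited values are log2 intensities per probe set, so a difference of 1 is a factor of 2. Among the 5 arrays, pairs correlated at 0.981 to 0.991 across the 22206 probe sets tested, and their medians lay within 0.084 of each other. The progenitor markers Kit, Cd34, Mpo and Myb stood above the 95th percentile of the negative control sets in all 5 arrays. So did 29 of 33 late neutrophil genes, 12 of 18 mast cell and basophil genes, 13 of 18 megakaryocyte genes, 16 of 31 monocyte and macrophage genes and 2 of 9 eosinophil genes. The same held for 4 of 18 erythroid genes, Car2, Gata1, Blvrb and Tfrc, but not for Klf1 and Alas2, which were above that level in 0 of 5 arrays. It held for 0 of 16 B lymphoid genes, for 1 of 17 T and NK genes (Thy1, with Cd3e and Cd3g in 0 of 5 arrays) and for 1 of 17 stromal and endothelial genes (Pecam1, with Cdh5, Col1a1 and Col1a2 in 0 of 5). These markers were named after their values were seen. Transcripts of maturing myeloid cells were thus present beside those of progenitors, and in bulk RNA fewer cells of a type and less RNA per cell cannot be told apart.

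Some arrays stood apart. Mycn, the gene that the NMyc vector carries, was at 9.77 in Hom-Ctrl replicate 1 and 7.61 in Hom-Ctrl replicate 2, against 7.53, 7.50 and 7.65 in the Het-Ctrl arrays. The Hom-NMyc arrays read 12.38 and 12.28. Hom-Ctrl replicate 1 thus lay between the Ctrl and the NMyc levels, although its label gives the Ctrl vector. The sample codes in the labels run in 3 blocks of consecutive numbers: run 1 holds replicate 1 of both groups, run 2 holds replicate 2 of both, and run 3 holds Het-Ctrl replicate 3. What the runs mean is not stated. In run 1 the Y-linked gene Eif2s3y was at 3.81 in Hom-Ctrl replicate 1 and 3.59 in Het-Ctrl replicate 1. It was at 9.55 in Hom-Ctrl replicate 2, against 9.78 and 8.80 in Het-Ctrl replicates 2 and 3, so the low Y-linked signal fell in 1 array of each group. The main counts below are given with and without Hom-Ctrl replicate 1.

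In all, 533 probe sets differed between Hom-Ctrl and Het-Ctrl, which is 2.4% of those tested, at limma's adjusted p under 0.05. Of these, 297 were higher in Hom-Ctrl (1.34%) and 236 were lower (1.06%). A change of at least 2-fold was reached by 166, of which 79 were higher and 87 lower. In all 533 both Hom-Ctrl values lay outside the range of the 3 Het-Ctrl values, which 30.2% of all tested sets also did. Groups that do not overlap must differ in the same direction within run 1 and within run 2, so this held for all 533. The call count rested on single arrays: 426 sets were called without Hom-Ctrl replicate 1, but 55 without Hom-Ctrl replicate 2, 339 without Het-Ctrl replicate 1, 163 without Het-Ctrl replicate 3 and 279 without both arrays of run 1. Of 74 genes that were called and are named below by rule, 53 kept their call without Hom-Ctrl replicate 1, 17 without Hom-Ctrl replicate 2, 57 without Het-Ctrl replicate 1, 59 without Het-Ctrl replicate 2 and 39 without Het-Ctrl replicate 3. All 74 kept their direction, which leaving out arrays cannot turn where the groups do not overlap. The 21 that lost their call without Hom-Ctrl replicate 1, at adjusted p-values of 0.0526 to 0.173, were Plk2, Mrgpra2a, Pparg, P2rx3, Rnase12, Cd200r3, Gata2, Siglecf, F2r, Meis1, Prom1, Mllt3, Cebpe, Ndufb6, Bnip3l, Pdk1, Gsta4, Cad, Orc2, Cdkn2a and Il1a. In each alternative fit that tested them, 15 kept their call: Olfr266, Zmat3, Eda2r, Ptgds, Phlda3, Prrg4, Abca13, Siglece, Cd177, Tnfrsf10b, Ltf, Itgb2l, Bst2, Vldlr and Mtap. Over all tested sets the median difference was -0.000977.

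**Figure D1:**
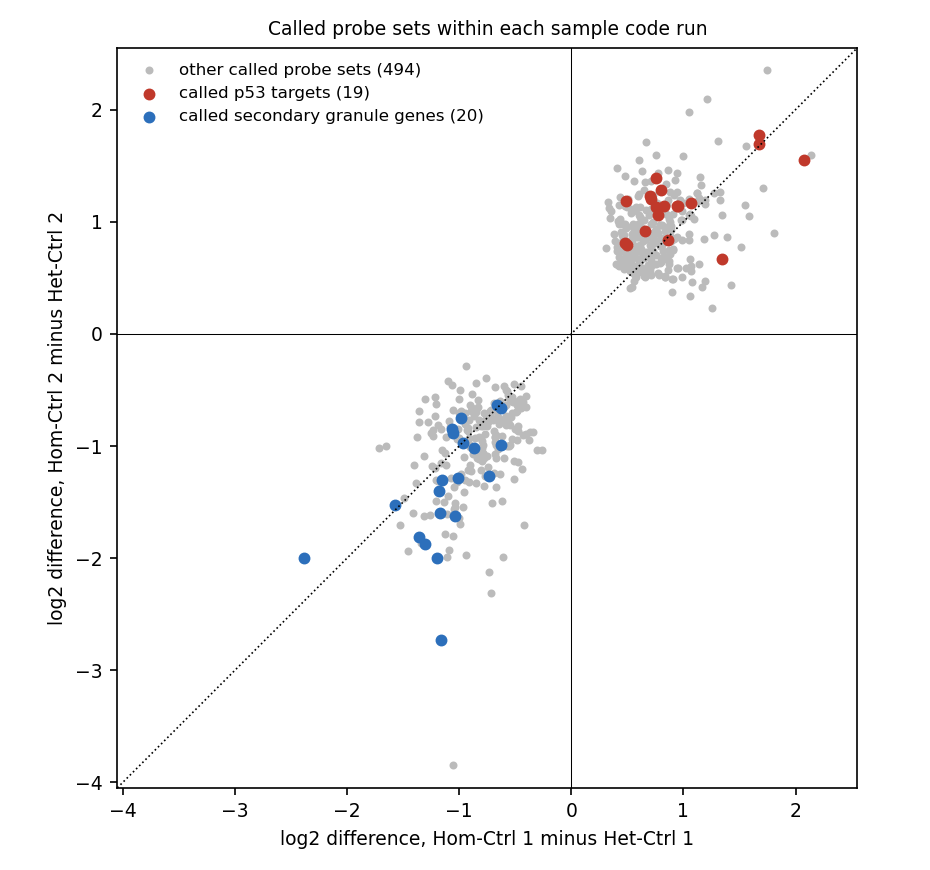
Each point is 1 of the 533 called probe sets, placed by its log2 difference within run 1 (Hom-Ctrl 1 minus Het-Ctrl 1, horizontal) and within run 2 (Hom-Ctrl 2 minus Het-Ctrl 2, vertical). All points lie in the quadrants where both runs have the same sign, as they must where the groups do not overlap. The 19 called p53 targets are in the upper right one and the 20 called secondary granule genes in the lower left one. The point lowest on the vertical axis is Ccl24.

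The p53 targets held more rises than any other of the lists. Of 60 p53 target genes listed, 54 were measured. Of these, 19 rose in Hom-Ctrl and 0 fell, beside 1.34% and 1.06% of all tested sets. Many members were dim: 21 stood above the 95th percentile of the negative control sets in all 5 arrays and 18 in none. Phlda3, Eda2r and Plk2, described below, were under that level in all 5 arrays, so their fold changes are limited by background. With dim probe sets left out, 16 members were called. The median difference of the list was 0.485. It was 0.455 within run 1 and 0.426 within run 2, whose Hom-Ctrl and Het-Ctrl arrays do not have raised Mycn. The mean level of the list was 8.15 and 8.19 in the Hom-Ctrl arrays, against 7.71, 7.71 and 7.48 in the Het-Ctrl arrays, so the groups did not overlap. Without Hom-Ctrl replicate 1, 13 members were called, and without Hom-Ctrl replicate 2, 5.

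Of 4 members that act on p53 itself, on Akt or on RNA, 3 rose. Zmat3, an RNA-binding protein that p53 induces, was at 8.82 and 8.50 in Hom-Ctrl arrays, against 7.15, 6.72 and 6.34 in Het-Ctrl arrays. Its difference was 1.92 ± 0.26 (SE), or 3.80-fold, with an adjusted p of 0.00225. Phlda3, which holds back Akt signalling, was at 7.41 and 7.29 in Hom-Ctrl, against 5.74, 5.60 and 5.16 in Het-Ctrl. That made it 3.61-fold higher, a difference of 1.85 ± 0.20, and it shared the smallest adjusted p of the comparison, 0.00065. Mdm2, the ubiquitin ligase that removes p53, was at 10.49 and 10.87 in Hom-Ctrl, against 9.79, 9.66 and 9.49 in Het-Ctrl. It was 2.05-fold higher with an adjusted p of 0.00315. In each of these genes the lower Hom-Ctrl array was above the highest Het-Ctrl array by more than the spread of either group.

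Among the 10 members with a role in cell cycle arrest or mitosis, 5 rose. Cdkn1a, which encodes the CDK inhibitor p21, was at 12.14 and 12.52 in Hom-Ctrl, against 11.34, 11.24 and 10.80 in Het-Ctrl. Its difference was 1.20 ± 0.18, or 2.30-fold, with an adjusted p of 0.00401. Ccng1, cyclin G1, was 2.16-fold higher with an adjusted p of 0.00643. Gtse1, which carries p53 out of the nucleus, and Psrc1, a spindle protein, were 2.08-fold and 2.06-fold higher. Plk2, a stress-induced kinase, was at 7.30 and 7.24 in Hom-Ctrl, against 6.35, 6.10 and 4.74 in Het-Ctrl. The low value of Het-Ctrl replicate 3 enters its difference of 1.54 ± 0.34, and Plk2 lost the call without Hom-Ctrl replicate 1 (adjusted p = 0.103). Btg2, an antiproliferative gene, differed by -0.03 with an adjusted p of 0.959, and the stress genes Sesn1 and Sesn2 by 0.26 and 0.27 with adjusted p-values of 0.506 and 0.565.

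Of 10 members with a role in cell death, 4 rose. Tnfrsf10b, the mouse TRAIL death receptor, was at 8.16 and 8.36 in Hom-Ctrl, against 7.09, 7.20 and 6.79 in Het-Ctrl. Its difference was 1.23 ± 0.16 with an adjusted p of 0.00225. Eda2r, a receptor of the same family, was at 6.58 in both Hom-Ctrl arrays, against 4.51, 5.03 and 4.58 in Het-Ctrl. Of the 3 Het-Ctrl arrays, 2 read no higher than the middle of the negative control sets for Eda2r, so its rise is a bound of at least 3.58-fold, with an adjusted p of 0.00148. Perp, a membrane protein of p53-driven apoptosis, and Aen, a nuclease that apoptosis needs, were 1.96-fold and 1.65-fold higher, with adjusted p-values of 0.0327 and 0.0229. The death receptor Fas and the BH3-only genes Bbc3 and Pmaip1 were not called, with differences of 0.07, -0.21 and 0.35 and adjusted p-values of 0.916, 0.555 and 0.424. Of 5 members with a role in DNA repair or nucleotide supply, the repair nuclease gene Ercc5 (1.93-fold) and the translesion polymerase gene Polk (1.64-fold) rose. Ddb2, Xpc and Rrm2b differed by -0.45, -0.17 and -0.39, with adjusted p-values of 0.227, 0.684 and 0.471. The other 5 called members were Dglucy, a mitochondrial enzyme gene, Ddias, Slc19a2, a thiamine transporter, Abhd4, a lipid hydrolase, and Epha2, an ephrin receptor, with differences between 0.98 and 1.12. These role groups were drawn up after the values had been seen.

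**Figure D2:**
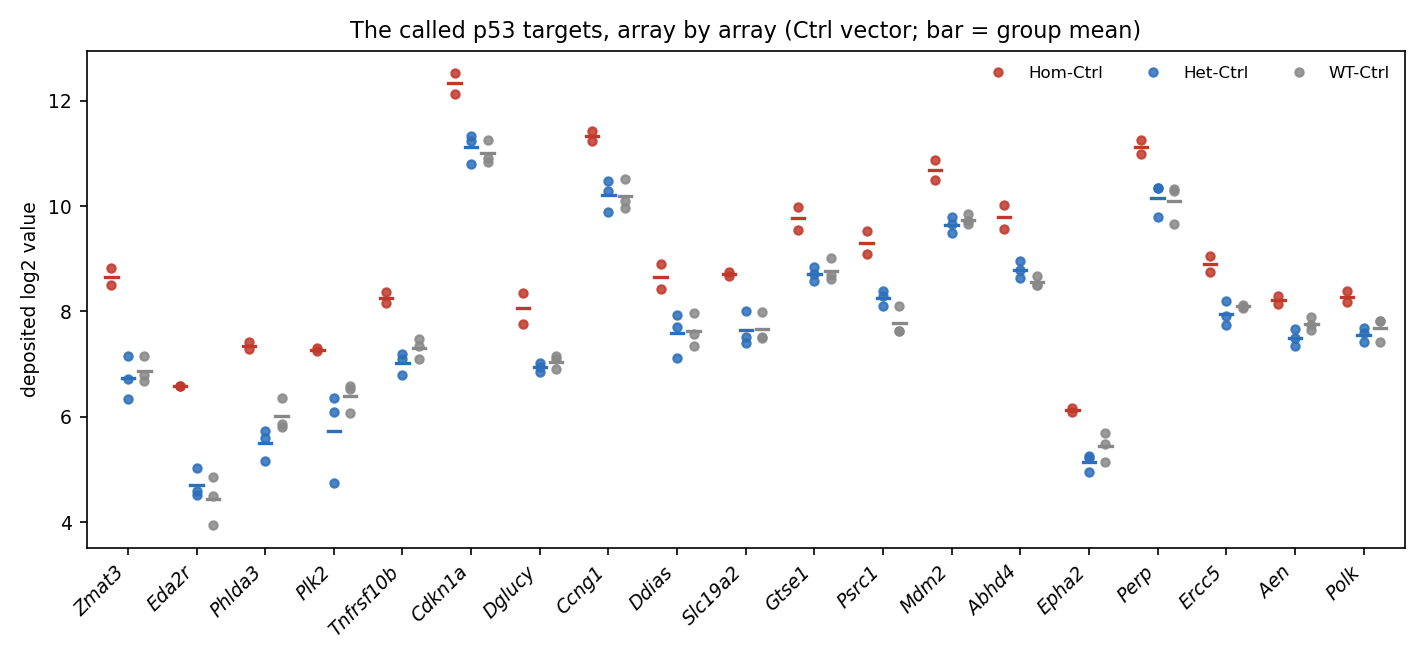
Deposited log2 values (vertical axis) of the 19 called p53 targets in the Hom-Ctrl, Het-Ctrl and WT-Ctrl arrays, each point 1 array and each bar a group mean. Genes run by the size of their difference, from Zmat3 on the left to Polk. In all 19 both Hom-Ctrl points lie above all Het-Ctrl points.

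The promoters of 4 of the called p53 targets are shown because a p53 site lies close to their start. Sequences are from RefSeq, build GRCm38.p6, on the strand of the gene, with the matched bases in capitals. The window searched was the 250 bases before each start, and 16 of the 19 called targets had an entry. A p53 half-site has 10 letters and reads the same on both strands. A full site was taken as a pair of half-sites at most 1 base apart, with at most 2 mismatches in all and the central C and G of each kept. Cdkn1a has its full site at chr17:29090888-29090978 (+ strand, at 1 of its 2 listed starts) and Ccng1 at chr11:40755422-40755521 (- strand). Mdm2 at chr10:117710895-117710984 (- strand) and Aen at chr7:78895897-78895986 (+ strand) each hold a half-site without mismatch.
Cdkn1a: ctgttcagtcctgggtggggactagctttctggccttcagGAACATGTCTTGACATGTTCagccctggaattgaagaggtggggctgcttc
Ccng1: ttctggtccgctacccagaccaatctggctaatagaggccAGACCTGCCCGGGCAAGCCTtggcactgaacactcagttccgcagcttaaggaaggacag
Mdm2: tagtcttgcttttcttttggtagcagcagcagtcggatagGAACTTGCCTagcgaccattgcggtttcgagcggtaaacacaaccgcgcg
Aen: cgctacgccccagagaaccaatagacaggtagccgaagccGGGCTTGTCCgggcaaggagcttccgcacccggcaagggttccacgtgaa
A full site was found in 2 of the 16 called targets, in 3 of the 30 other measured targets with an entry and in 0.655% of all 27025 genes in the table. A half-site without mismatch was found in 5 of the 16, in 6 of the 30 and in 8.2% of all genes. A match is a run of letters and was not tested for binding.

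Genes of neutrophil maturation held more falls than any other of the lists. Of 33 genes of secondary and tertiary granules and late maturation, 20 fell in Hom-Ctrl and 0 rose, beside 1.06% and 1.34% of all tested sets, with a median difference of -0.912. The list averaged 10.13 and 9.83 in the Hom-Ctrl arrays, against 10.96, 10.90 and 10.83 in the Het-Ctrl arrays. Within run 1 the median was -0.937 and within run 2 it was -1.04. Without Hom-Ctrl replicate 1, 18 members were called, and without Hom-Ctrl replicate 2, 4.

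Genes of granule proteins and of surface receptors fell together. Ltf, lactoferrin, the iron-binding protein of secondary granules, was at 10.81 and 10.29 in Hom-Ctrl, against 11.98, 11.89 and 11.98 in Het-Ctrl. Its difference was -1.40 ± 0.17, or 2.63-fold lower, with an adjusted p of 0.00148. Mmp8, neutrophil collagenase, and Fcnb, a ficolin stored in granules, were both 1.88-fold lower, with adjusted p-values of 0.0134 and 0.03. Cd177, a neutrophil surface glycoprotein, was at 9.31 and 8.90 in Hom-Ctrl, against 10.66, 10.71 and 10.63 in Het-Ctrl. With a difference of -1.57 ± 0.16 and an adjusted p of 0.00065, it shared the smallest adjusted p with Phlda3 and Ptgds. Csf3r, the receptor for the growth factor that drives neutrophil production, was 1.83-fold lower with an adjusted p of 0.00675. Clec5a, a lectin receptor of myeloid cells, was at 7.86 and 6.61 in Hom-Ctrl, against 9.02, 9.34 and 9.49 in Het-Ctrl, so its 2 Hom-Ctrl values lay far apart, yet both under the Het-Ctrl range. Abca13, a lipid transporter gene, was 3.45-fold lower and Padi4, the enzyme that citrullinates histones in neutrophils, 1.88-fold lower. Cebpe, which encodes C/EBP epsilon, was at 8.95 and 8.88 in Hom-Ctrl, against 9.67, 9.56 and 9.62 in Het-Ctrl. Its difference of -0.70 ± 0.17 had an adjusted p of 0.038, which was 0.0971 without Hom-Ctrl replicate 1. Cebpe is counted with the stem and progenitor genes and not in the list of 33.

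Further called members were receptors and smaller secreted proteins. Itgb2l, an integrin chain of neutrophils, was at 9.82 and 10.09 in Hom-Ctrl, against 10.87, 10.98 and 11.02 in Het-Ctrl. Cd33, an inhibitory lectin, and Trem3, an activating receptor, differed by -1.39 and -0.94, with adjusted p-values of 0.00326 and 0.0038. Ceacam10, Lrg1 and Retnlg, genes of secreted neutrophil proteins, differed by -1.39, -0.89 and -1.27. Pglyrp1, which binds bacterial peptidoglycan, and Anxa1, a protein that limits inflammation, had the smallest called falls of the list, with differences of -0.63 and -0.58 and adjusted p-values of 0.0419 and 0.0421.

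A stretch of stefin A genes, cysteine protease inhibitors of neutrophils on chromosome 16, was among the largest falls. Stfa3 was at 8.29 and 7.44 in Hom-Ctrl, against 10.67, 9.44 and 9.75 in Het-Ctrl, 4.25-fold lower with an adjusted p of 0.003. Of 13 genes of this family measured, 9 fell and 0 rose, beside 1.06% and 1.34% of all tested sets. Stfa3 also has the lowest value in the list of 33 above, so falls of this family enter both counts. The stefin list was drawn up after the values had been seen. Without Hom-Ctrl replicate 1 there were 9 falls too, and without Hom-Ctrl replicate 2 there were 0. The copies are near-identical, so their probes may share transcripts and the members are not independent. The same holds for Mrgpra2a and Mrgpra2b, a pair of receptor genes (differences of -1.76 and -1.49), and for the survival genes Bcl2a1a, Bcl2a1b and Bcl2a1d (-1.41, -1.20 and -1.02), which were the only 3 calls among 27 apoptosis genes.

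Other genes of the list did not pass the test. Ngp, a granule protein, was at 13.31 and 13.33 in Hom-Ctrl, against 13.41, 13.43 and 13.35 in Het-Ctrl (adjusted p = 0.865). Lcn2, S100a8 and S100a9, abundant neutrophil proteins, differed by -0.33, -0.35 and -0.27, with adjusted p-values of 0.222, 0.231 and 0.325. These genes lay near the top of the array range. Camp, the cathelicidin gene, and Mmp9, gelatinase, differed by -0.87 and -0.86, with adjusted p-values of 0.0637 and 0.0586.

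Primary granule genes gave no call. Of 12 measured, 0 rose and 0 fell, beside 1.34% and 1.06% of all tested sets, with a median difference of 0.0301. The groups did not overlap in 11 of the 12, with 6 higher and 5 lower in Hom-Ctrl, beside 30.2% of all tested sets. Prtn3, Ms4a3 and Prss57 were among the lower ones, with differences of -0.45, -0.34 and -0.25. Srgn, Nkg7 and Ctsc were among the higher ones, with 0.49, 0.57 and 0.32. The median near 0 thus lies between uncalled shifts in both directions and does not show that each gene was unchanged. Mpo, myeloperoxidase, was at 12.18 and 12.32 in Hom-Ctrl, against 12.35, 12.12 and 12.54 in Het-Ctrl. Elane, neutrophil elastase, was at 12.38 and 12.75 in Hom-Ctrl, against 12.82, 12.78 and 12.93 in Het-Ctrl. The groups overlapped for Mpo, and for Elane the higher Hom-Ctrl value lay just under the lowest Het-Ctrl value, with adjusted p-values of 0.877 and 0.396. The mean of the list was 10.76 and 10.85 in Hom-Ctrl, against 10.82, 10.74 and 10.74 in Het-Ctrl. Whether the difference of one list differs from that of the other was not tested.

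**Figure D3:**
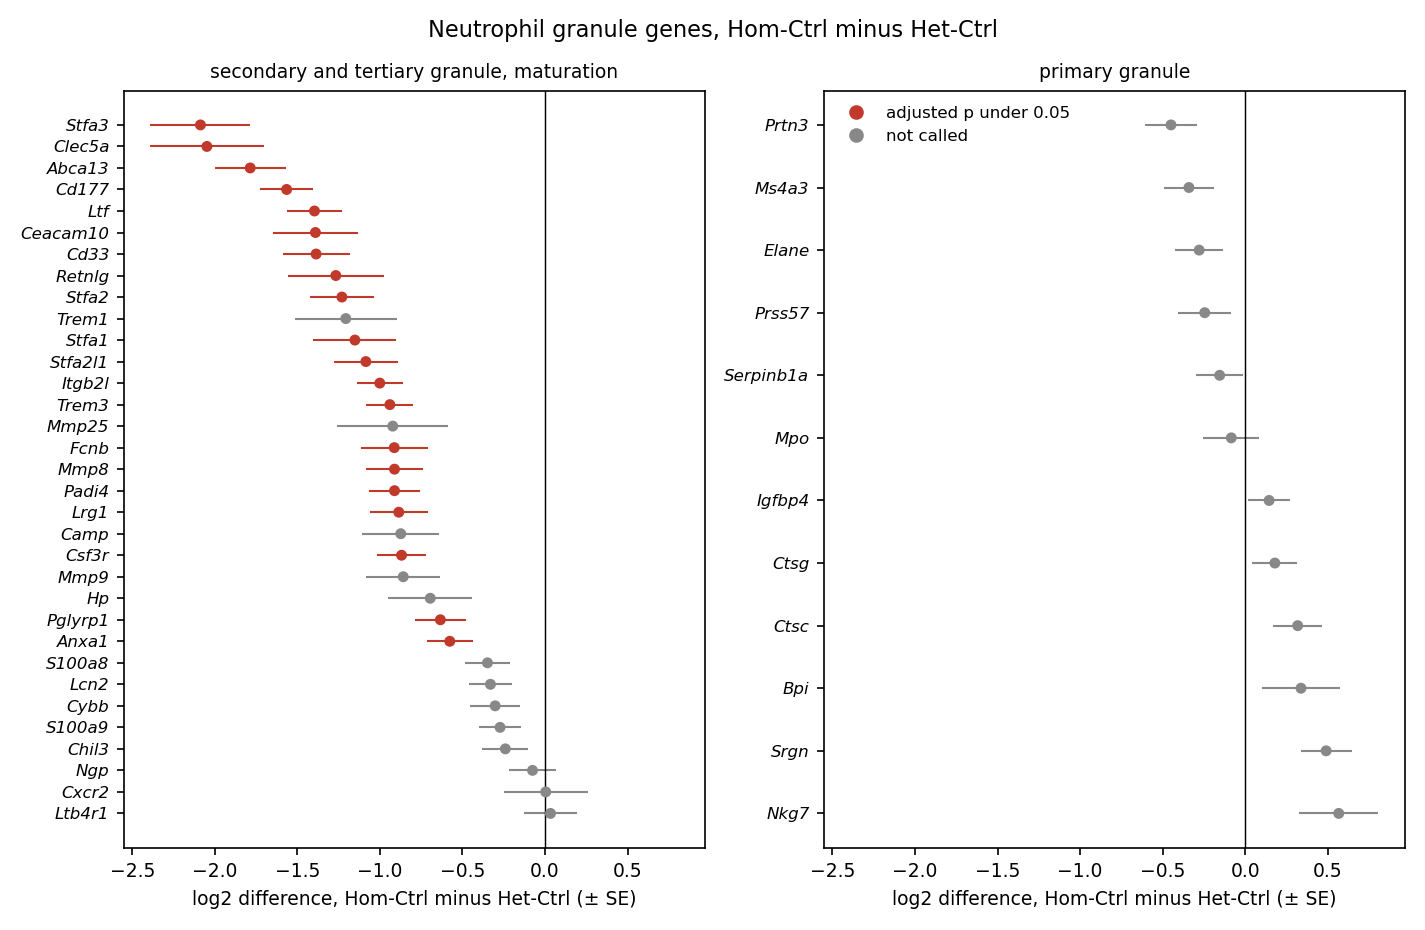
Log2 differences, Hom-Ctrl minus Het-Ctrl, with the standard error of the model as bars, for 33 secondary and tertiary granule and maturation genes (left) and 12 primary granule genes (right). Called genes are red. On the left 20 points are red and lie below 0, and on the right no point is red and the values run from -0.45 to 0.57.

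The promoters of 4 of the fallen granule genes are shown for the letters TTGCNNAA, a C/EBP-type core, which were searched on both strands of the same 250-base window. The entries are Ltf at chr9:111019177-111019264 (+), Mmp8 at chr9:7558370-7558428 (+), Fcnb at chr2:28085066-28085128 (-) and Stfa1 at chr16:36276999-36277086 (+), in RefSeq's GRCm38.p6. Capitals mark the match on either strand.
Ltf: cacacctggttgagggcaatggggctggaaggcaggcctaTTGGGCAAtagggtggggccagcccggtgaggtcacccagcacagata
Mmp8: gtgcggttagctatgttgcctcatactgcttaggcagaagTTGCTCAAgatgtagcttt
Fcnb: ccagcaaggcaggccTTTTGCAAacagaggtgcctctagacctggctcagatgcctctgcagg
Stfa1: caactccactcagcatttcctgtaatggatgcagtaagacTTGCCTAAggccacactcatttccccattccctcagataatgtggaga
The letters were found in 6 of 19 called granule genes with an entry, in 3 of 11 others of that list, in 0 of 10 primary granule genes and in 10.8% of all genes. The motifs were chosen with the results known, and no factor's binding was measured.

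Monocyte and macrophage genes moved less uniformly. Of 31 measured, 3 fell and 0 rose, beside 1.06% and 1.34% of all tested sets. The median difference was -0.279, with -0.129 within run 1 and -0.665 within run 2. There were 5 falls without Hom-Ctrl replicate 1 and 0 without Hom-Ctrl replicate 2. F13a1, the coagulation factor XIII subunit made by monocytes, was at 8.34 and 7.83 in Hom-Ctrl, against 9.46, 9.61 and 9.12 in Het-Ctrl, 2.49-fold lower with an adjusted p of 0.00231. Clec4a2, a lectin receptor, differed by -1.06 ± 0.23 with an adjusted p of 0.026. Retnla, a secreted protein of alternatively activated macrophages, was no higher than the negative control median in both Hom-Ctrl arrays, which leaves a bound of at least 1.28-fold lower (adjusted p = 0.00436). Mrc1, the mannose receptor, was at 7.65 and 5.84 in Hom-Ctrl, against 9.25, 9.53 and 8.08 in Het-Ctrl. Its groups did not overlap, but the spread was wide and its difference of -2.20 ± 0.56 had an adjusted p of 0.053. The chemokine gene Ccl24 had the largest fall of the named genes, 4.94-fold, with 7.20 and 5.86 in Hom-Ctrl, against 8.25, 9.71 and 8.54 in Het-Ctrl. It was -1.05 within run 1 and -3.85 within run 2, and its adjusted p was 0.0405. Ccl24 was called in 9 of 19 alternative fits. Siglece, an inhibitory receptor of myeloid cells, was 3.03-fold lower (adjusted p = 0.00214), and Pparg, a nuclear receptor of lipid-handling macrophages, was 2.74-fold lower (adjusted p = 0.0155, and 0.117 without Hom-Ctrl replicate 1).

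Mast cell and basophil genes had rises and no falls. Of 18 measured, 4 rose and 0 fell, beside 1.34% and 1.06% of all tested sets, with a median difference of 0.299. There were 2 rises without Hom-Ctrl replicate 1 and 0 without Hom-Ctrl replicate 2. The list averaged 9.41 and 9.56 in Hom-Ctrl, against 9.12, 9.27 and 9.03 in Het-Ctrl. Ms4a2 and Fcer1a, the beta and alpha chains of the high-affinity IgE receptor, differed by 1.19 ± 0.18 and 0.67 ± 0.16, with adjusted p-values of 0.00327 and 0.0384. Gata2, a transcription factor of this lineage and of stem cells, differed by 0.64 ± 0.16 (adjusted p = 0.0425, and 0.0701 without Hom-Ctrl replicate 1). Cd200r3, a receptor of basophils and mast cells, was 1.71-fold higher (adjusted p = 0.0352, and 0.097 without Hom-Ctrl replicate 1). The protease genes Cpa3, Mcpt8 and Tpsb2 differed by 0.10, 0.21 and 0.26, with adjusted p-values of 0.84, 0.589 and 0.396. Gzmb and Prss34, also protease genes, differed by 0.65 and 0.40 without overlap, with adjusted p-values of 0.132 and 0.147. Mcpt1 and Mcpt2 differed by -0.12 and -0.01, with Mcpt1 near the negative controls. The part of a shift in cell types in the p53 and granule differences was not tested.

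Genes of the other blood lineages gave a small number of calls in short lists. In the megakaryocyte, erythroid, eosinophil and stem and progenitor lists the share called was above the 2.4% of all tested sets. Each such share rests on a handful of genes. Megakaryocyte genes had 2 rises among 18, both thrombin receptors, F2r and F2rl2, which differed by 0.78 and 0.80. F2r lost its call without Hom-Ctrl replicate 1 (adjusted p = 0.124). Of 18 erythroid genes 1 rose, Car2, a carbonic anhydrase, by 2.58-fold. Siglecf, an eosinophil receptor, was the 1 call among 9 eosinophil genes, at 6.90 and 7.39 in Hom-Ctrl, against 8.14, 8.30 and 8.09 in Het-Ctrl (adjusted p = 0.00601, and 0.0538 without Hom-Ctrl replicate 1). The eosinophil granule genes Epx and Prg2 differed by 0.29 and -0.20, with adjusted p-values of 0.613 and 0.707. Among 28 stem and progenitor genes, Meis1 and Mllt3, both regulators of stem cell self-renewal, rose by 1.97-fold and 2.05-fold, while Prom1 and Cebpe fell. Meis1, Mllt3 and Prom1 lost their calls without Hom-Ctrl replicate 1, with adjusted p-values of 0.0545, 0.11 and 0.0801. B lymphoid, T and NK, and stromal lists held 0 calls.

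Genes of the mitochondrion itself gave few calls, beside 2.4% of all tested sets. Counts near that share are not read as a result about these genes. Complex I had 1 rise among 35 nuclear genes, Ndufb6, a membrane arm subunit, which differed by 0.57 ± 0.14 (adjusted p = 0.0488, and 0.14 without Hom-Ctrl replicate 1). Complexes II to V had 0 calls among 41 genes, with a median of 0.232 and 37 members above 0. The mitochondrial ribosome had 1 rise among 76, Mrpl34, a protein of its large subunit, which was 1.83-fold higher with an adjusted p of 0.00874. The lists of mtDNA maintenance (29 genes), mitochondrial chaperones and proteases (20), fatty acid oxidation (18) and glycolysis (22) held 0 calls. Pdk1, the kinase that keeps pyruvate out of the mitochondrion, was the 1 call among 26 genes of the TCA cycle and pyruvate entry, with a difference of -1.14 (adjusted p = 0.0268, and 0.079 without Hom-Ctrl replicate 1). Polg was at 7.04 and 6.95 in Hom-Ctrl, against 7.25, 7.23 and 7.42 in Het-Ctrl, a difference of -0.31 ± 0.19 that was not called (adjusted p = 0.478). No value here shows which allele the transcript came from.

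The stress response that ATF4 drives, which mitochondrial damage is known to switch on, had falls and no rise. Of 41 measured genes, 7 fell and 0 rose, beside 1.06% and 1.34% of all tested sets, with a median of -0.314. Leaving out Hom-Ctrl replicate 1 left 5 falls, and leaving out Hom-Ctrl replicate 2 left 2. The list averaged 8.69 and 8.72 in Hom-Ctrl, against 8.96 to 9.21 in Het-Ctrl. Atf4 itself was at 11.12 and 11.07 in Hom-Ctrl, against 11.68, 11.61 and 11.96 in Het-Ctrl, a difference of -0.66 ± 0.15 with an adjusted p of 0.0281. Chac1, which breaks down glutathione, was 1.88-fold lower (adjusted p = 0.00965). Cth, the enzyme that makes cysteine from cystathionine, was at 7.40 and 7.42 in Hom-Ctrl, against 8.75, 8.21 and 8.85 in Het-Ctrl, 2.29-fold lower with an adjusted p of 0.0165. The other falls were Vldlr, a lipoprotein receptor, Jdp2, a bZIP transcription factor, and the tRNA-charging enzyme genes Cars and Mars1. Their differences were -0.97, -0.83, -0.70 and -0.74.

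Further metabolic and cell cycle genes changed singly. Beside the counts per list given here, 2.4% of all tested sets were called. Mtap, the methionine salvage enzyme, was at 9.88 and 10.14 in Hom-Ctrl, against 8.69, 8.95 and 8.45 in Het-Ctrl, 2.49-fold higher with an adjusted p of 0.00225. Cdkn2a, the neighbouring gene, which encodes the p16 and Arf tumour suppressors, was 2.02-fold higher (adjusted p = 0.0251, and 0.0825 without Hom-Ctrl replicate 1). The array value does not tell these products apart. Among 38 antioxidant genes, Cat, catalase, and Gsta4, a glutathione transferase, rose by 0.72 and 0.85 on the log2 scale, and Mgst1, a microsomal one, differed by -0.94. DNA replication genes had 1 rise among 41, Orc2, with a median of -0.218. The nucleotide synthesis gene Cad rose and Tk1 fell, with differences of 0.83 and -0.73. Bst2, an antiviral membrane protein, was at 10.11 and 9.91 in Hom-Ctrl, against 9.13, 9.07 and 8.95 in Het-Ctrl, and with Gbp2, an interferon-induced GTPase at a bound of at least 2.02-fold higher, made 2 calls among 36 interferon response genes. The p21 and p16 genes were the 2 calls among 14 CDK inhibitors and D cyclins. Bnip3l, a receptor for the removal of mitochondria, was the 1 call among 24 genes of mitochondrial dynamics, with a difference of -0.70. Of 19 hypoxia genes, Car12, a carbonic anhydrase, rose by 0.97, and Vegfa, a vessel growth factor, and Pdk1 fell. Of 19 iron genes Ltf and Hfe, a regulator of iron uptake, fell. Il1a, an interleukin gene at a bound of at least 1.83-fold higher, and Ccl24 were the calls among 34 inflammatory genes. Il1a differed by 0.85 without Hom-Ctrl replicate 1, with an adjusted p of 0.173. Of 47 ribosome biogenesis genes 1 rose, Wdr12, by 0.73. Mitosis and DNA damage repair lists held 0 calls. Myc differed by -0.15 (adjusted p = 0.743), and Mycn by 1.13, all of it from Hom-Ctrl replicate 1 (adjusted p = 0.152).

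The largest single rise named was Olfr266, an olfactory receptor gene, at 7.42 and 7.52 in Hom-Ctrl, against 5.68, 5.17 and 5.04 in Het-Ctrl. It was 4.51-fold higher with an adjusted p of 0.00225 by limma. Both Hom-Ctrl values lay just under the 95th percentile of the negative control sets of their arrays, 7.459 and 7.579, so this rise is limited by background. Ptgds, a prostaglandin D synthase, was no higher than the negative control median in all 3 Het-Ctrl arrays, and its rise is a bound of at least 2.51-fold. Eng, endoglin, a coreceptor for TGF-beta, was 2.79-fold higher (adjusted p = 0.0046). Itm2a, Armcx2, Prrg4, Slc45a3, H2-Ob, Rnase12, Pglyrp2 and Tspan13 completed the largest rises, between 1.40 and 1.69 on the log2 scale. Plekhg1, Mgam, Creb5, P2rx3 and Slfn4 completed the largest falls, with Slfn4 at a bound of at least 3.25-fold and the others between -1.43 and -1.56.

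**Figure D4:**
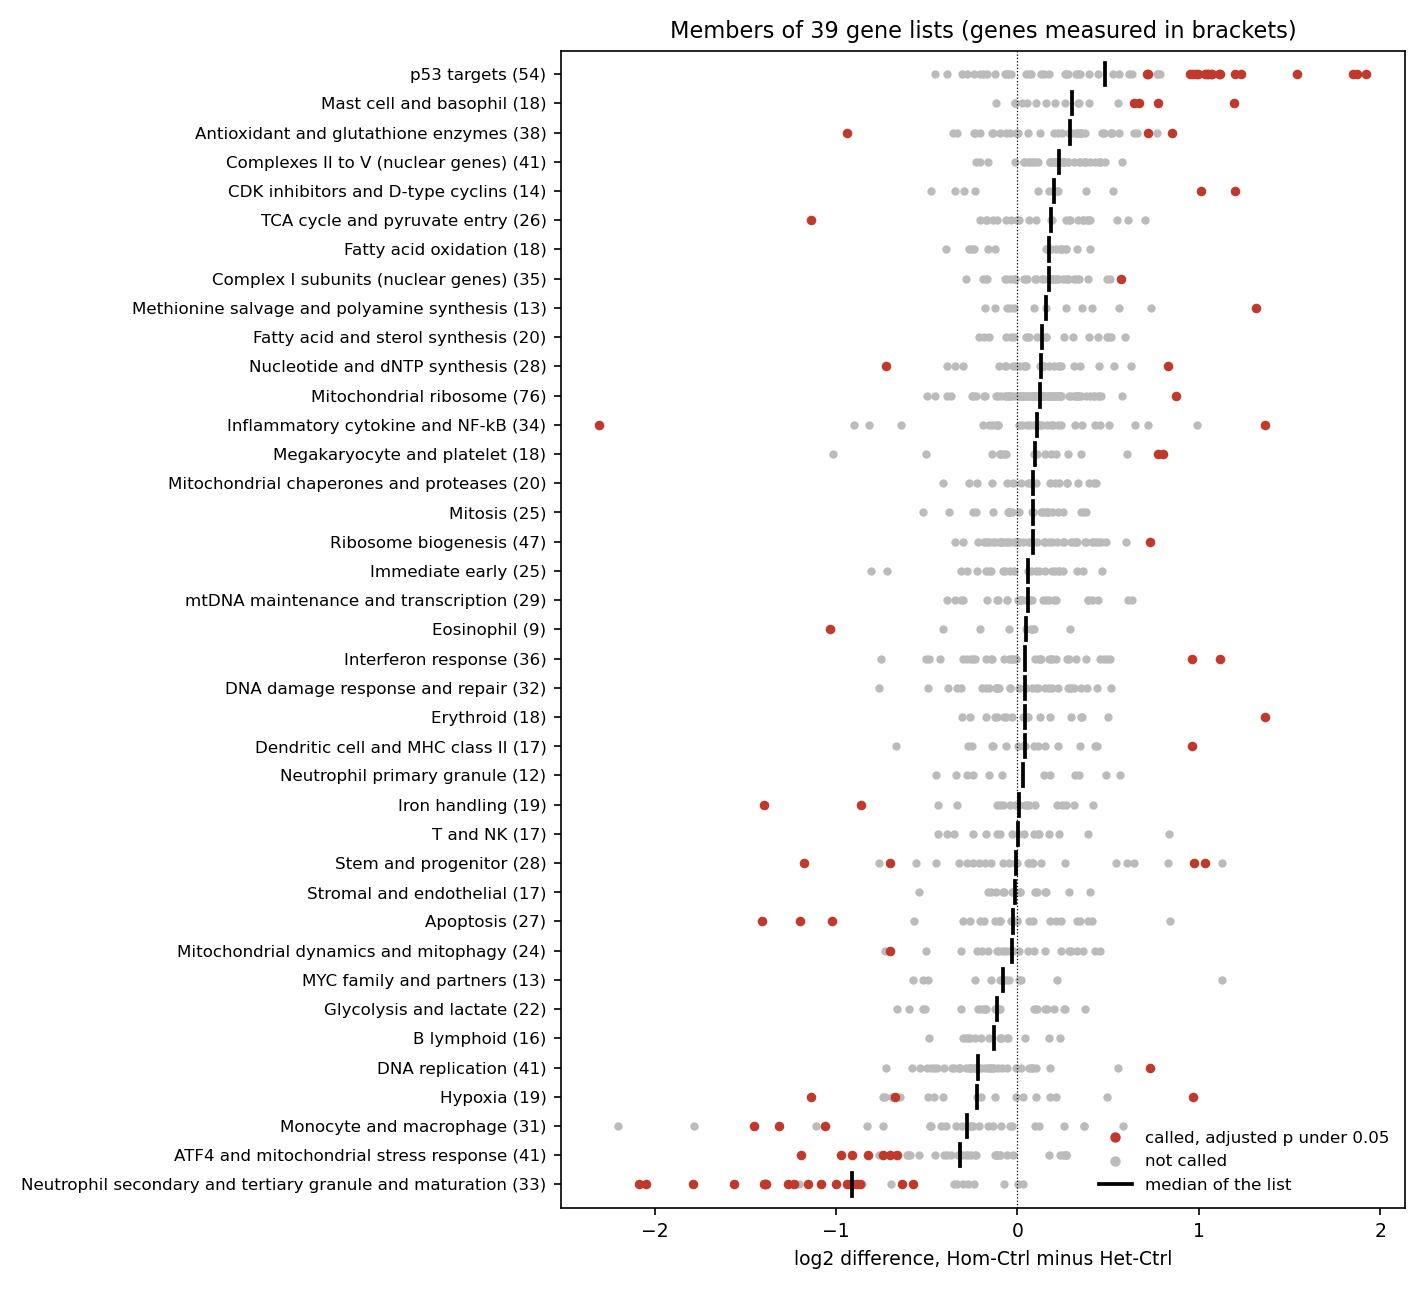
Log2 differences, Hom-Ctrl minus Het-Ctrl, of the measured members of 39 gene lists, with called members in red and the median of each list as a black bar. The p53 targets stand at the top with a median of 0.485 and the secondary and tertiary granule genes at the bottom with -0.912, and most other medians lie between -0.3 and 0.3.

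WT-Ctrl arrays place the heterozygous cells. No probe set was called between Het-Ctrl and WT-Ctrl (0 by limma, with 935 at an unadjusted p under 0.05 and a smallest adjusted p of 0.878). Between Hom-Ctrl and WT-Ctrl, 868 sets were called, which is 3.91%, with 450 higher in Hom-Ctrl (2.03%) and 418 lower (1.88%). Without Hom-Ctrl replicate 1 there were 606 calls and without Hom-Ctrl replicate 2 there were 99. These comparisons share arrays with the one above, so they are not independent of it. Cdkn1a differed by 1.33 between Hom-Ctrl and WT-Ctrl and by 0.12 between Het-Ctrl and WT-Ctrl. Phlda3 differed by 1.34 and -0.51 in the same pairs of groups, and Plk2 by 0.88 (adjusted p = 0.19) and -0.67. Ltf differed by -1.42 between Hom-Ctrl and WT-Ctrl and by -0.02 between Het-Ctrl and WT-Ctrl. In all 19 called p53 targets both Hom-Ctrl arrays were above the 3 WT-Ctrl arrays, and in all 20 called granule genes both were below them. These genes were called with the same Hom-Ctrl arrays, so this was likely from the start. The share of all tested sets outside the WT-Ctrl range was not counted.

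The same genotype difference can be read in cells given N-Myc, on arrays whose values do not enter the difference above, although they enter its estimate of the spread (382 or 416 calls without 1 of them). Whether those cells came from the same mice is not given. Hom-NMyc against Het-NMyc gave 0 calls by limma, with 1093 sets at an unadjusted p under 0.05 and a smallest adjusted p of 0.433. Of the 297 sets higher in Hom-Ctrl, 244 were also higher in Hom-NMyc, and of the 236 lower ones, 155 were lower. Over all tested sets 56.5% had the same sign under both vectors. The sets called higher had a median difference of 0.828 with Ctrl and 0.206 with NMyc, and those called lower had medians of -0.909 and -0.0738.

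The p53 and granule genes followed this in part. Of the 19 called p53 targets, 18 were higher in Hom-NMyc than in Het-NMyc, with a median of 0.244 against 1.07 with Ctrl. Mdm2 differed by 0.40 with NMyc, Ccng1 by 0.48 and Cdkn1a by 0.41, with unadjusted p-values of 0.0282, 0.0313 and 0.0594 in limma. Of the 20 called granule genes, 11 were lower in Hom-NMyc, with a median of -0.0881 against -1.12 with Ctrl. Ltf was at a mean of 9.54 in Hom-NMyc and 9.45 in Het-NMyc, both under its Ctrl levels. A test of the difference between the vectors called 7 sets (0.0315% of those tested), 2 of them positive (0.00901%) and 5 negative (0.0225%), and none of them a p53 target or a granule gene. The smaller NMyc values of those genes are therefore not shown to differ from the Ctrl ones. Ltf lay just over the threshold, with a difference between the vectors of -1.48 and an adjusted p of 0.0613 by limma. The median of that difference was -0.832 in the granule list and 0.459 in the p53 list.

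**Figure D5:**
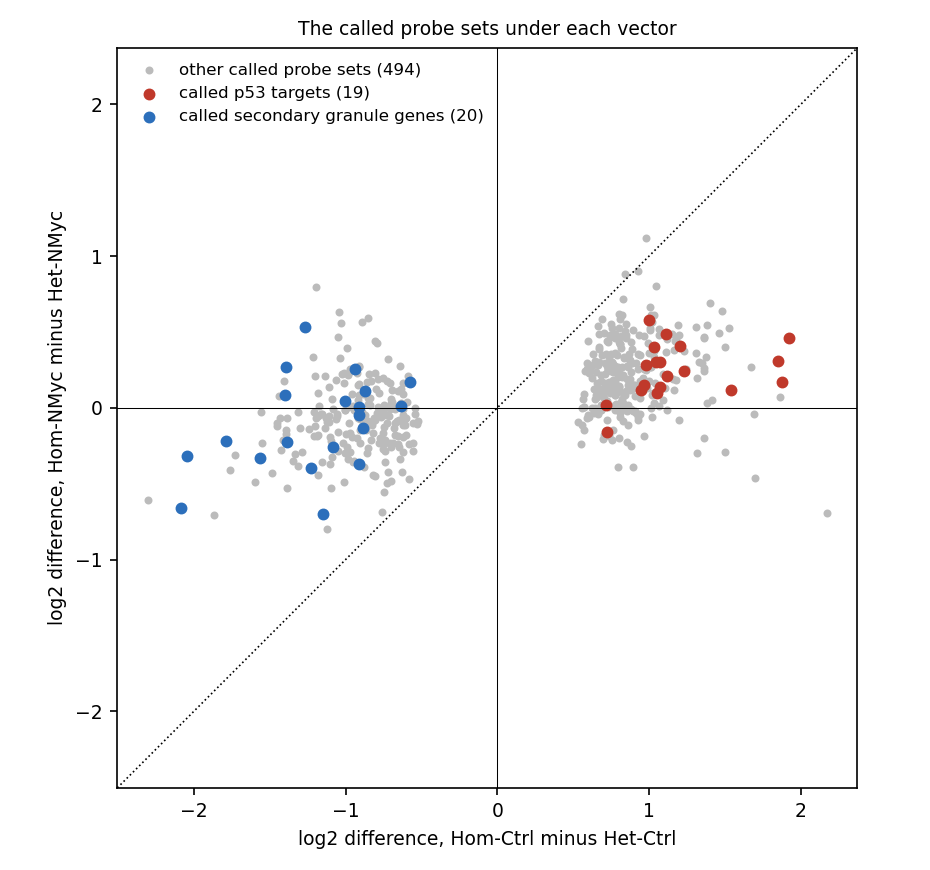
Each point is 1 of the 533 called probe sets, placed by its log2 difference with the Ctrl vector (Hom-Ctrl minus Het-Ctrl, horizontal) and with the NMyc vector (Hom-NMyc minus Het-NMyc, vertical); the dotted line marks equal differences. Points on the right lie mostly above 0 but below the line, with a median of 0.206, and those on the left scatter around 0, with a median of -0.0738.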

How the data were processed

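RNA was measured on Affymetrix whole-transcript arrays. The deposited table holds log2 intensity values per probe set, which the submitters' processing notes credit to Affymetrix Expression Console. The sources used here give neither its version nor the normalization. A shift common to most transcripts could have been removed before deposit. Of 28846 probe sets, 6640 control sets were left out, and no further scaling was applied. Symbols came from the platform annotation, checked against RefSeq (GRCm38.p6): 19572 sets had 1 symbol and 2634 none.

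limma 3.58.1 in R 4.3.3 fitted 6 group means to all 14 arrays, moderated the spread with eBayes (8 residual and 7.3 prior degrees of freedom) and adjusted p-values by Benjamini-Hochberg over the 22206 sets. A call is an adjusted p under 0.05, two-sided. The fit was tested on simulated data. P-values measure the spread between these arrays, whose number limits the precision. Where some arrays of 1 group were not above the negative control median, they were put at it and the difference is a bound.

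Members and the 40 gene lists were chosen with earlier results of these data known, so lists have counts and medians and no test. Named genes are up to 15 rises and 15 falls among named calls whose groups do not overlap, without predicted genes and clones, up to 4 members with the smallest p per list that holds a call, and Mycn, Myc and Polg. For symbols with several sets, the set with the highest mean was used. Others were named after their values were seen: the lineage markers and the further members of the p53, granule, ATF4, monocyte, mast cell, TCA and stefin lists. Alternatives were other scalings, filters, blocks, subsets of arrays and leaving out each array.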

Additional observations from a re-analysis of the deposited data

Results flagged for a closer look

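A test of the difference itself, Hom minus Het with the Ctrl vector minus Hom minus Het with the NMyc vector, singled out 7 genes at an adjusted p of 0.0462 each by limma. Olfr266, an olfactory receptor gene, had an interaction of 2.87 on the log2 scale, from a difference of 2.17 with Ctrl and -0.69 with NMyc. Its Hom-NMyc replicate 1 value was no higher than that array's negative control median, so the NMyc part is limited by background. Ptgds, a prostaglandin D synthase, had 1.79, but its levels in Het-Ctrl and in both NMyc groups were near the negative controls. The other 5 were lower in Hom-Ctrl than in Het-Ctrl and not lower in Hom-NMyc than in Het-NMyc. Siglecf, an eosinophil receptor, had -1.59, A530064D06Rik -1.55, Gpr141, an orphan receptor, -1.44, Vldlr, a lipoprotein receptor, -1.23 and Crispld2, a secreted protein, -1.21. Siglecf was at 6.90 and 7.39 in Hom-Ctrl and 8.14, 8.30 and 8.09 in Het-Ctrl, while it averaged 7.49 in Hom-NMyc and 6.93 in Het-NMyc. The group means rest on 2 or 3 arrays each, and when 1 array of the 4 groups was left out, Siglecf kept its call without Hom-Ctrl replicate 2 and none of the 7 did without any other array. With code run as a block Olfr266 stayed under 0.05 (0.0269) and the other 6 did not, with Siglecf at 0.0557. With the replicate block Olfr266 and Siglecf stayed (0.0482 each) and the other 5 were above 0.05. Olfr266, A530064D06Rik and Ptgds were not tested once dim sets were removed.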

How the results depend on the processing

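Of the 74 named genes that were called, all kept their direction under each of 19 alternative fits (60 of them were left to test once dim sets were removed), and 15 kept their call in each fit that tested them. Leaving out arrays could not turn these directions, because the groups do not overlap for any of these genes. The main comparison had 533 calls (297 higher, 236 lower). It had 558 (293 and 265) with quantile normalization, 523 (304 and 219) with arrays centred, 636 (344 and 292) with code run as a block, 892 (502 and 390) with dim probe sets left out, which left 9292 to test, 231 (110 and 121) with only AFFX controls left out, 884 (480 and 404) with a trend and robust fit, 182 (85 and 97) from the 8 Ctrl arrays alone, 216 (95 and 121) from the 5 arrays alone, 166 (79 and 87) at 2-fold or more, and 279 (172 and 107) without both arrays of code run 1, an alternative chosen after seeing the data. Leaving out 1 array gave 55 to 426 calls, 25 to 258 higher and 30 to 185 lower. Hom-Ctrl replicate 2 decided most: without it 5 p53 targets and 4 granule genes were called, against 19 and 20, and the eosinophil genes Ear6 and Prg2, both uncalled, turned positive (-1.22 to 0.40 and -0.55 to 0.14 with 1 array left out). With any other array left out, 13 to 20 p53 targets and 14 to 18 granule genes were called. The cause was not tested. Hom-NMyc against Het-NMyc had 0 calls in each alternative except 1 without Hom-NMyc replicate 1. The difference between vectors had 7 calls, 11 with dim sets left out, 0 with only AFFX controls left out, 20 with a trend and robust fit, 3 with code run as a block and 0 to 3 with an array left out. The replicate block (replicate number as a block) gave 449 calls in the main comparison and 4 for the difference between vectors; 363 calls were shared with the fit without it. Same-numbered deviations of Hom-Ctrl and Het-Ctrl correlated at 0.142 and 0.0953. With so few Hom-Ctrl arrays their deviations mirror each other, so these values cannot show whether the numbers pair samples. Eif2s3y was low in replicate 1 of Hom-Ctrl, Het-Ctrl and WT-Ctrl alike (3.81, 3.59 and 3.96). Whether same-numbered samples belong together was not tested further. Scaling moved the median difference to -0.0042 (quantile) and 0.011 (centred). Dim genes near the negative controls are limited by signal over background.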

Other observations

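Some genes of the endoplasmic reticulum (ER), where secreted proteins are folded and sent on, rose in Hom-Ctrl. This group of 60 measured genes was drawn up after the values had been seen, so it is a description with no test: 16 rose, 0 fell and 44 did not pass, beside 1.34% of all sets called higher, with a median difference of 0.356. Without Hom-Ctrl replicate 1, 11 rose, and without Hom-Ctrl replicate 2, 0 did. Hspa5, the main ER chaperone, was at 12.42 and 12.66 in Hom-Ctrl, against 11.61, 11.99 and 11.43 in Het-Ctrl, a difference of 0.86 ± 0.18 with an adjusted p of 0.018 by limma. Sec24d, a coat protein of vesicles that leave the ER, was at 8.72 and 9.05 in Hom-Ctrl, against 7.83, 8.09 and 7.64 in Het-Ctrl, with a difference of 1.03 and an adjusted p of 0.005. Hyou1, Calr, Creld2, Pdia3 and Pdia6, which help proteins fold, and Rpn1, Ssr2, Srp68 and Derl2, which work in translocation, glycosylation or disposal, were also higher, by 0.57 to 0.97. The count of rises also rested on the Het-Ctrl arrays: leaving out Het-Ctrl replicate 1, 2 or 3 gave 6, 12 and 2 rises. With NMyc the median of the group was 0.0415. In the same arrays 7 of 41 ATF4 genes, some of which answer to ER stress too, fell.

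Genes beside Polg on chromosome 7 were counted too. In the RefSeq order of measured genes, 8 of the 100 nearest (50 on each side) were called, or 8%, of which 6 were higher and 2 lower in Hom-Ctrl, beside 2.4% of all sets. Windows of the same size held 3 calls round Cdkn2a and 5 round Olfr266, and no test was made. The nearest was Aen, 8 genes away, a p53 target counted in the report. Fam174b differed by 1.20 and Slco3a1 by -0.97. The 3 measured genes on each side of Polg were not called. The window was chosen after other results were known.

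Probe sets whose IDs carry an M in place of a chromosome number have no symbol in the annotation. There were 9, none called, with differences from -0.14 to 0.10.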
